A study of Homo sapiens with 18 samples.

Results

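Regions of open chromatin that carried a peak in the head and neck squamous carcinoma line SCC1 and in neither of the lines SCC6 and SCC25 are described here. They were chosen on the deposited peak lists. A region was kept if a peak overlapped it by at least 1 base in 3 or more of the 5 SCC1 libraries and in none of the 12 libraries of the other lines. This rule kept 614 of 115087 regions (0.534%), and 2.62% of the 23481 regions with a peak in 3 or more SCC1 libraries. The same rule turned round kept 26234 regions for SCC6 and 9245 for SCC25.

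Open chromatin was read out by ATAC-seq, where a transposase cuts accessible DNA and tags the ends, in 3 cell lines treated for 5 days with cetuximab at 100 nM or with PBS. Cetuximab is an antibody that blocks the epidermal growth factor receptor (EGFR). Each of the 6 groups (SCC1 cetuximab, SCC1 PBS, SCC6 cetuximab, SCC6 PBS, SCC25 cetuximab and SCC25 PBS) had 3 replicates, apart from SCC1 PBS with 2 libraries, as its replicate 2 was not analysed here. The sources used do not tie replicates to separate cultures, so each p-value measures only the spread between these libraries, which may be technical. Each line is a single established tumour line, so a difference between lines is one between 3 cultures and not between tumour types.

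Open chromatin marks promoters and distal regulatory elements. Promoters of housekeeping genes are open in most cells, whereas distal elements are more often restricted to a cell type, since they open where transcription factors bind them. In squamous epithelium, AP-1 (dimers of FOS and JUN proteins that answer growth factor signalling), the p53 relative p63, and TFAP2 proteins are well-known factors at such elements. Repeated sequences spread over the genome also carry binding sites, so many copies of one repeat can open together.

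The SCC1 libraries were shallow. They held 2194851 to 4171650 reads in regions and 13035 to 36033 peaks, against 4098164 to 15017130 reads in SCC6 and 2513828 to 13408698 in SCC25. At a median of 28.0 to 52.5 reads per SCC1-only region and SCC1 library, counting alone limits single values. Of 12 squamous epithelium genes, 8 had a promoter region with a peak in 3 or more SCC1 libraries (8 in SCC6 and 9 in SCC25). For simple epithelium it was 3 of 6 genes in SCC1 (5 in SCC6 and 3 in SCC25), for mesenchymal genes 4 of 12 (8 and 8), for lymphoid and myeloid genes 1 of 9 (0 and 1), for neural and melanocyte genes 2 of 8 (3 and 2), and for the 6 endothelial genes with an annotated start site 0 (0 and 0).

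Of the 614 regions, 324 had a peak in 3 SCC1 libraries, 163 in 4 and 127 in all 5. SCC1 cetuximab replicate 2, the shallowest library, had a peak at 211 of them, and the other SCC1 libraries at 437 to 559. Their signal (whole reads scaled per library by the authors) chose them indirectly, so the levels are a description without a test. The median over regions of the mean signal reached 56.6 for SCC1, 4.19 for SCC6 and 7.88 for SCC25, and the median ratio was 13.0-fold over SCC6 and 6.98-fold over SCC25. In bulk libraries, fewer cells with a region open and less opening per cell cannot be told apart.

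Just inside the rule, regions with a peak in exactly 3 SCC1 libraries had a median signal of 47.0 in SCC1, 4.12 in SCC6 and 7.80 in SCC25. Just outside it, 874 regions with a peak in 2 SCC1 libraries and in no other line had 32.5, 4.55 and 8.07. Another 401 regions failed through a peak in a single library of another line, with 56.1, 9.19 and 16.2. The rule therefore cuts a graded distribution, and its members do not stand apart in signal from their neighbours.

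In 561 of the 614 regions (91.4%), every SCC1 library lay above every library of the other lines, which held at 5.46% of all regions. A further 24 regions had peaks but almost no signal in the deposited table, with a mean of at most 4.94 in SCC1, while the next region had 10.9. In 15 of these 24 (62.5%), over 50% of the 32-base words occurred elsewhere in the genome, against 71 of the other 590 (12.03%). They included the promoters of CKMT1A and CKMT1B, a duplicated pair of mitochondrial creatine kinase genes, whose words were all found elsewhere. Peaks and table disagree there, so these 24 say nothing on the level in SCC1. Without them the median signals were 57.7, 4.48 and 8.10 for SCC1, SCC6 and SCC25.

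**Figure D1:**
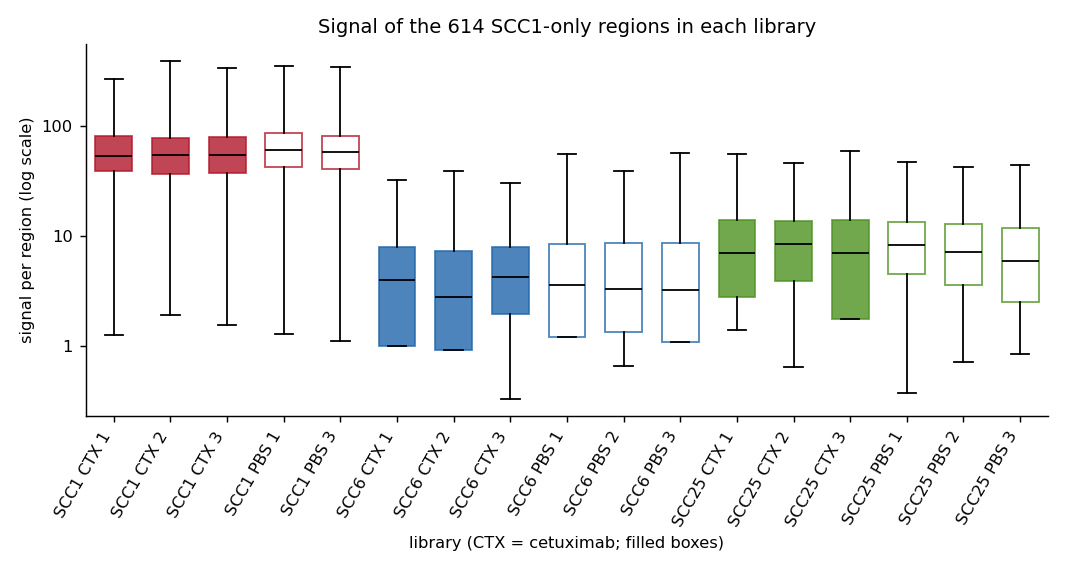
Signal of the 614 SCC1-only regions in each of the 17 libraries, on a log scale. Boxes span the quartiles with the median as a line, whiskers reach the lowest and the highest region, and filled boxes are cetuximab (CTX). The medians lie between 53.3 and 60.5 in SCC1 and between 2.79 and 8.47 in the other lines.

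The choice could be repeated on separate libraries. With a peak required in all 3 SCC1 cetuximab libraries and in no cetuximab library of the other lines, 214 regions were chosen without the PBS libraries. In the PBS libraries, 188 of these 214 (87.9%) were called higher in SCC1 than in both SCC6 and SCC25 (limma, two-sided, Benjamini-Hochberg adjusted p under 0.05 in both contrasts, no filter on low regions), against 8.58% of all regions. The median log2 difference of the 214 was 3.98 over SCC6 and 2.92 over SCC25. With the 25% lowest regions left out, 196 of the 214 were tested and 182 called (11.2% of all tested regions were), but these regions pass that filter mainly through their level in SCC1, so this count is no further support.

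The regions were mostly distal. By GENCODE annotation on GRCh37 (hg19), 231 of 614 were intergenic, 224 lay in introns of protein-coding genes, 103 in long non-coding genes, 24 within 1 kb of a protein-coding start site, 20 in coding exons, 9 in untranslated regions and 3 in other exons. The promoter share was 3.91% (95% Wilson interval 2.64 to 5.75%), against 13.5% of all regions and 34.4% of all regions with a peak in 3 or more SCC1 libraries. It was 3.18% for SCC6-only and 4.402% for SCC25-only regions, so a low promoter share was common to the regions of a single line. The median distance to a start site was 40.5 kb, the median width 234 bases (257 over all regions) and the median GC content 48.9% (46.0% over all regions, 34.7% in SCC6-only and 46.5% in SCC25-only regions).

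Members within 100 kb of a start site mostly had a nearest gene with an open promoter region in the other lines. Of 429 SCC1-only regions within 100 kb of a start site, 245 (57.1%) had a nearest gene with an open promoter region in SCC1, 280 (65.3%) in SCC6 and 261 (60.8%) in SCC25. Within 10 kb of a member, 257 of 614 had a region open in SCC6, 221 one open in SCC25 and 173 one open in SCC1 other than itself. The other lines were mostly sequenced deeper. These shares were not computed over all regions, so whether members differ in them from other regions was not tested.

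Members lay on each autosome and on X, and their share of regions ran from 0.154% on chromosome 9 (8 of 5188) to 0.907% on chromosome 4 (58 of 6392). Signal at 17317 regions open in all 3 lines was used as a guide to regional level. Its median log2 ratio of SCC1 to the mean of the other lines was 0.33, and ranged from -0.24 on chromosome 14, where 7 of 4048 regions were members, to 0.66 on chromosome 17. Within 1 Mb of members it was 0.48 (quartiles 0.28 and 0.68, 552 members with 5 or more such regions), and it passed 1 at 17 members. The part of regional copy number in the member levels was not tested.

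The 10 regions with the highest SCC1 signal per 100 bases of width were taken as the most accessible ones. The sequences below are the central 200 bases of the first 4 of these for which sequence is printed (GRCh37, plus strand), shown because they differ in which known motifs they hold. Capitals mark every match to one of the 17 motifs searched.
KCTD12 (chr13:77480168-77480367): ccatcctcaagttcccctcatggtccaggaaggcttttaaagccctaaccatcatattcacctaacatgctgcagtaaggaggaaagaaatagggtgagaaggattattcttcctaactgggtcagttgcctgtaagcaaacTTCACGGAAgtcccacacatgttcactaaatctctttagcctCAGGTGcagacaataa
CYREN (chr7:134860734-134860933): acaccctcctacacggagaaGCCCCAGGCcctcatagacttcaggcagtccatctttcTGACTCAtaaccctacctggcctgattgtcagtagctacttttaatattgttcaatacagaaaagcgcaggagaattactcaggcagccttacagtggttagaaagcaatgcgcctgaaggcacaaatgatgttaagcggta
AMOTL2 (chr3:134056081-134056280): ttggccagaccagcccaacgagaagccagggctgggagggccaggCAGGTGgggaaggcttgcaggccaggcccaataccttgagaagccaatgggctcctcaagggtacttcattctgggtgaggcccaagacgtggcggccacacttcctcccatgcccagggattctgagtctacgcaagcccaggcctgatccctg
RARA (chr17:38467944-38468143): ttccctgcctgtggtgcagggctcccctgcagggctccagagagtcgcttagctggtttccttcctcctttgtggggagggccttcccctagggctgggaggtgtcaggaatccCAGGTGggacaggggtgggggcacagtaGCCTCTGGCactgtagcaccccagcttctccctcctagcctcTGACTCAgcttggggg
The KCTD12 region held an E-box and a STAT motif. The CYREN region held an AP-1 and a TFAP2 motif, the AMOTL2 region an E-box alone, and the RARA region AP-1, TFAP2 and E-box motifs.

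The region near KCTD12, a GABA-B receptor auxiliary subunit, had the highest signal per 100 bases (123.6). It lay in intergenic DNA 19.6 kb from the start site. Its signal was 234, 290 and 299 in the cetuximab and 213 and 200 in the PBS libraries of SCC1 (247 ± 44.9, SD, n = 5), against 0.669 to 1.32 in SCC6 and 0.721 to 8.86 in SCC25. All SCC1 libraries thus lay more than an order of magnitude above the others, while SCC6 was near the floor of 1 read.

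The region 17.3 kb from HEY1, a NOTCH target and transcriptional repressor, lay in a long non-coding gene and had AP-1, TEAD and GATA motifs. Its signal was 251, 251 and 294 after cetuximab and 303 and 242 after PBS in SCC1 (268 ± 28.0, SD, n = 5), against 6.53 to 17.5 in SCC6 and 1.41 to 14.4 in SCC25. The region 34.3 kb from AMOTL2, an angiomotin family scaffold of the Hippo pathway, had 260, 257 and 283 after cetuximab and 354 and 304 after PBS (292 ± 39.6, SD, n = 5), against 3.62 to 18.2 in SCC6 and 13.0 to 28.3 in SCC25. Neither set of SCC1 libraries overlapped with the other lines.

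The region in an intron of RARA, the retinoic acid receptor alpha, was less clear-cut. It had 117, 77.9 and 119 after cetuximab and 71.6 and 50.2 after PBS in SCC1, against 14.5 to 25.4 in SCC6 and 17.3 to 32.3 in SCC25. The lowest SCC1 library was thus less than 2-fold above the highest SCC25 library. The region 5.24 kb from CYREN, a regulator of DNA end joining, had 49.5 to 91.6 in SCC1, 1.01 to 5.57 in SCC6 and 17.3 to 28.3 in SCC25. The other regions of the 10 had TRHR (144 kb away), KANK4, EPC2, CNBD1 and TRIM46 as nearest gene, with SCC1 means of 51.6 to 321. Ranking by signal per 100 bases favours narrow regions. The KANK4 region, 93 bases wide, had the mean of 51.6, below the member median of 56.6.

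Promoter regions here lay within 1 kb of any annotated start site of a protein-coding gene. Whether it was the main start site of the gene was not examined. Of the 24 promoter regions, the 10 with the highest signal per 100 bases belonged to PFKFB4, ZNF7, DMRTA2, MYB, TPST2, CASP4, SLC41A3, KCNIP2, HOMER2 and COL4A2. The next sequences are the central 200 bases of the first 3 of these for which sequence is printed (GRCh37, plus strand). They are shown as promoter regions with peaks in a single line, with motif matches in capitals.
DMRTA2 (chr1:50889124-50889323): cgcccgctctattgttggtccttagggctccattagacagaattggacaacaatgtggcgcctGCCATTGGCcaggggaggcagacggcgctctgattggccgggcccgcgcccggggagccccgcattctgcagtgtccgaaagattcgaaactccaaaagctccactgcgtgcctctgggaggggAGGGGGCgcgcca
MYB (chr6:135506751-135506950): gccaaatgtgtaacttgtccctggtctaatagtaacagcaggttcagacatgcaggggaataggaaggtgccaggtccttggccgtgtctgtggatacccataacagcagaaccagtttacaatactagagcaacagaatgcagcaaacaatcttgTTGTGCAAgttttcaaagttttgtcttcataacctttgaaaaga
TPST2 (chr22:26960269-26960468): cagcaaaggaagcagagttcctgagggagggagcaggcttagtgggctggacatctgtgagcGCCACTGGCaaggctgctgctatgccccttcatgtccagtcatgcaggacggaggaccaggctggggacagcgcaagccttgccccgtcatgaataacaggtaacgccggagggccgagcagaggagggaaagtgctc
The DMRTA2 and TPST2 promoters each held a TFAP2 motif, the DMRTA2 promoter also a CTCF core, and the MYB promoter a C/EBP motif.

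PFKFB4, which sets the level of the glycolytic activator fructose 2,6-bisphosphate, had the strongest promoter. It had 197, 208 and 341 after cetuximab and 173 and 136 after PBS in SCC1 (211 ± 77.8, SD, n = 5), against 0.669 to 11.96 in SCC6 and 3.39 to 13.0 in SCC25. Its cetuximab libraries all lay above its PBS libraries, with a log2 change of 0.65 (SE 0.20, adjusted p = 0.0163 by limma).

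DMRTA2, a DM-domain transcription factor of the developing brain, had 140, 154 and 153 after cetuximab and 191 and 169 after PBS in SCC1, against 0.669 to 5.44 in SCC6 and 9.77 to 17.7 in SCC25. At a start site of MYB, a transcription factor of progenitor cells, SCC1 had 95.2, 107 and 67.3 after cetuximab and 53.3 and 78.2 after PBS, against 8.44 to 20.2 in SCC25. In SCC6 the MYB promoter had 17.2, 19.5 and 16.5 after cetuximab and 3.62, 4.01 and 1.09 after PBS, with no overlap and a log2 change of 2.36 (SE 0.56, adjusted p = 0.00116 by limma). The TPST2 promoter had 15.2, 22.3 and 16.2 against 3.62, 7.36 and 2.175 in SCC6, a log2 change of 1.91 (SE 0.52, adjusted p = 0.00439 by limma). These SCC6 PBS levels were low, and 1.09 for MYB was at the floor of 1 read. Of all tested regions, 16.9% were called higher in SCC6. COL4A2, a chain of basement membrane collagen IV, had 49.5, 54.5 and 61.0 after cetuximab and 29.9 and 24.6 after PBS, against 4.04 to 8.70 and 1.41 to 5.05. In the DMRTA2, MYB and COL4A2 promoters, each SCC1 library lay above each library of the other lines. For COL4A2 the treated libraries were above the PBS libraries, with a log2 change of 0.99 (SE 0.36) that missed the threshold (limma adjusted p = 0.053).

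CASP4, an inflammatory caspase, had 42.8 to 61.1 in SCC1, 0.928 to 8.70 in SCC6 and 2.54 to 17.6 in SCC25. The promoters of SLC41A3, a magnesium transporter, KCNIP2, a potassium channel subunit, and HOMER2, a synaptic scaffold, had SCC1 means of 44.4 to 81.0. Promoters outside the 10 included those of DHX15, ZNF513, ZSCAN31, IL7R, ADAP1, FFAR4, HNRNPF, ZC4H2, KCTD14, GNE and THBS2, with SCC1 means of 39.9 to 133, besides CKMT1A and CKMT1B at 1.44.

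**Figure D2:**
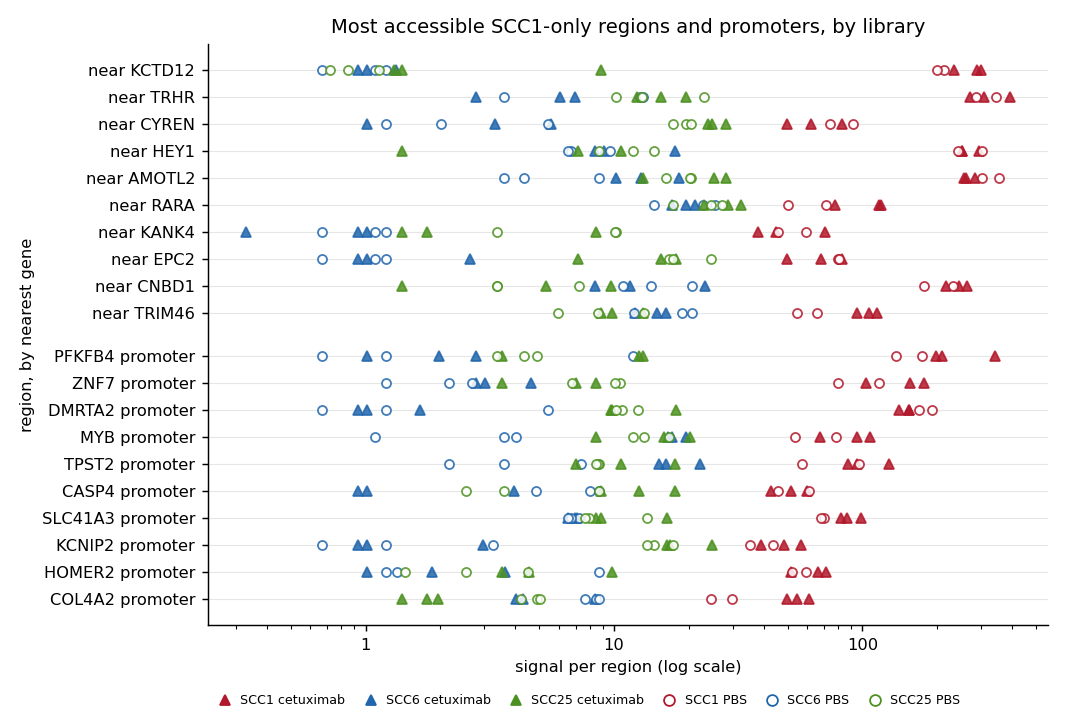
Signal per library (log scale) of the 10 most accessible SCC1-only regions, named by the nearest gene, and of the 10 strongest SCC1-only promoter regions. Triangles are cetuximab and open circles PBS libraries. In each row the SCC1 libraries lie to the right of all others; the RARA and KCNIP2 rows have the smallest gaps.

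Members were spread thinly. They had 548 different nearest genes, and when members close to each other were joined, 600 stood alone and 7 pairs remained. GABRG1, a GABA-A receptor subunit, was nearest to 5 members at 22.97 to 663 kb, with SCC1 means of 37.4 to 193. PCDH7, a protocadherin, was nearest to 4, all over 1166 kb away. FAT1, an atypical cadherin often mutated in squamous carcinoma, had 3 at 8.52 to 580 kb with SCC1 means of 39.8 to 73.6, against means of at most 7.46 in SCC6 and 0.962 in SCC25. LRP1B, METTL4, NNMT and SLC4A3 were nearest to 3 members each, and ADARB2, ADGRB3 and ARID5B to 2 each. Of all these, 2 of the NNMT members were called higher and 1 of the METTL4 members lower after cetuximab.

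The first of the joined pairs lay in an intron beside NNMT, nicotinamide N-methyltransferase (chr11:114042026-114050473), with SCC1 means of 109 and 125 against means of at most 2.38 in SCC6 and 17.7 in SCC25. The others of the first 5 pairs were beside LPIN2 (chr18:3003943-3014433), LRP1B (chr2:141101933-141102709), SLC9A9 (chr3:143320964-143328080) and RFPL4B (chr6:112649996-112651684).

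A region was counted for a fixed list if its nearest protein-coding start site belonged to a list gene and lay within 100 kb. Regions nearer to another gene were not counted. Few members were counted, and their share of the counted regions is to be read beside 0.534% over all regions. Among 12 AP-1 factors, 4 of 82 counted regions (4.88%) were members, near JUN, BATF3 and FOSL2. The JUN region, 25.3 kb away in the non-coding gene LINC01135, had 61.4 to 121 in SCC1, 1.01 to 12.7 in SCC6 and 0.651 to 4.52 in SCC25. Among 11 NOTCH genes, 3 of 92 regions were members, near HEY1 and JAG1. The JAG1 region, 59.3 kb from this NOTCH ligand, was weak, with 15.7 to 46.7 in SCC1 and 12.7 to 19.7 in SCC25, which overlapped.

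Among squamous genes, 2 of 95 regions were members. The region 1.30 kb from KRT14, a basal keratin, had 79.8 to 138 in SCC1, 1.21 to 4.96 in SCC6 and 25.2 to 56.2 in SCC25. The region 1.43 kb from KRT6A, a keratin of activated epithelium, had 32.5 to 67.3, 2.79 to 9.79 and 17.3 to 29.4. Both keratin regions carried signal in SCC25 that no peak marked, with the highest SCC25 library close to the lowest SCC1 library.

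Cytokine genes had 2 members of 75 regions. The region 1.34 kb from CXCL1, a neutrophil chemokine, held AP-1 and E-box motifs and had 21.9 to 67.7 in SCC1, 0.928 to 1.34 in SCC6 and 8.86 to 23.9 in SCC25, so SCC1 and SCC25 overlapped. The region 21.1 kb from IL1A, interleukin 1 alpha, had 55.9 to 87.6, 0.669 to 9.28 and 3.39 to 15.9, with no overlap. Matrix and invasion genes had 2 of 237, the COL4A2 promoter and a coding exon of LAMA3, a laminin chain.

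Developmental factors had 2 of 363. The region 7.03 kb from IRX2, a homeobox factor, was strong in SCC1 (150 ± 24.8, SD, n = 5) with 22.1 to 37.96 in SCC25. In SCC6 it had 26.3, 16.7 and 29.8 after cetuximab and 8.46, 8.03 and 3.26 after PBS, a log2 change of 1.78 (SE 0.44, adjusted p = 0.00151 by limma), where 16.9% of all tested regions were called higher. The other region lay in an intron of RUNX2, where 4.70 to 37.7 in SCC1 overlapped with 3.26 to 14.2 in SCC25. Endothelial genes had 2 of 47, both near KDR, with SCC1 means of 124 and 69.3. KDR is a VEGF receptor, and its promoter had no peak in 3 or more libraries of any line. Synaptic adhesion genes had 2 of 323, both in LRP1B. TGF-beta and BMP genes had 1 of 162 (TGFBR2), bypass receptors 1 of 127 (IGF1R), Hippo genes 1 of 115 (AMOTL2) and neural and melanocyte genes 1 of 34 (STMN2).

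By this nearest-gene count, no member fell to the ERK feedback list (117 regions), the EGFR family and its ligands (123) or WNT genes (153). The same held for mesenchymal genes (106), simple epithelium genes (36) and lymphoid and myeloid genes (18). These counts are small, and the lists were set with earlier results of these data known and carry no test.

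Motifs were searched on both strands in the central 200 bases. TFAP2 (GCCNNNGGC) was in 15.1% of members and 8.55% of all regions, AP-1 (TGAGTCA) in 16.1% and 20.8%, the E-box CACCTG in 16.1% of both, C/EBP (TTGCNNAA) in 13.4% and 10.9%, NF1 (TTGGCA) in 12.2% and 11.2%, and SP/KLF (CCGCCC) in 9.61% and 12.4%. RUNX (TGTGGTT) was in 2.12% and 6.66%, forkhead (TGTTTAC) in 2.93% and 4.94%, TEAD (TGGAATG) in 7.003% and 6.17%, STAT (TTCNNNGAA) in 5.70% and 6.21%, the CTCF core (AGGGGGC) in 5.21% and 4.31%, and the p53 family motif (GACATGT) in 2.93% and 2.07%. SOX (ACAATGG), ETS (CCGGAAGT) and GRHL (AACCNGGTT) motifs were in at most 1.30% of members.

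The other single-line sets had other profiles. AP-1 was in 32.8% of SCC25-only and 6.05% of SCC6-only regions, and TFAP2 in 5.85% and 3.04%. Among all regions with a peak in 3 or more SCC1 libraries, TFAP2 letters were in 16.2% at a median GC content of 54.7%, and among members without the shared sequence described below in 18.3% at 51.1%. The sets differ in GC content, and the part of base composition in these shares was not tested. Motif letters overlap between families, so a match names letters and not a bound factor.

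The NF-kB motif GGAATTTCC departed most from its background. It was in 83 members (13.5%, 95% Wilson interval 11.04 to 16.45%), against 0.539% of all regions, 0.255% of SCC6-only and 0.335% of SCC25-only regions. In members with a peak in all 5 SCC1 libraries it reached 29.1%. Letters of GATA factors, AGATAA, were in 15.1% of members and 12.7% of all regions. These shares were seen first and then followed up, so the account of their source below was chosen after the values were known.

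**Figure D3:**
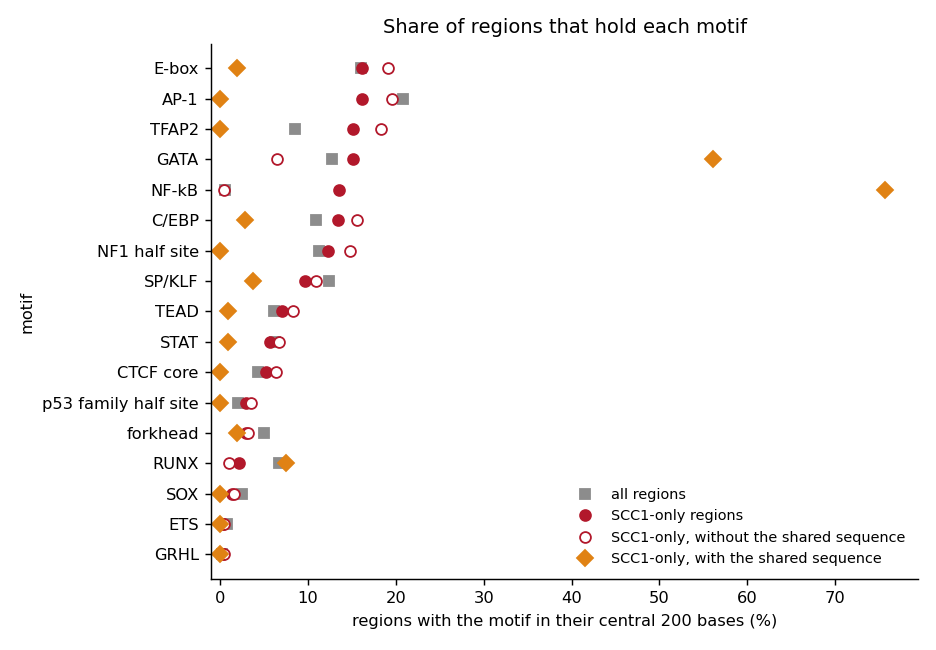
Share of regions (%) with each of 17 motifs in the central 200 bases. Squares are all 115087 regions, filled circles the 614 SCC1-only regions, open circles the 507 without and diamonds the 107 with the shared sequence. NF-kB and GATA letters sit in the diamonds, at 75.7% and 56.1%, and TFAP2 letters in the open circles, at 18.3%.

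Most NF-kB matches lay in 1 repeated sequence. When members were aligned to each other (blastn, E-value of at most 1e-10, at least 50 bases), 168 fell into 9 linked groups, of 107, 37, 6, 5 and 5 members and 4 pairs. The largest group held 107 members (17.4%), and 81 of the 83 members with the NF-kB letters in their central 200 bases. Without this group the motif was in 2 of 507 members (0.394%), close to the 0.539% of all regions. No repeat annotation was used, so the sequence is described by its letters.

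The lines that follow show why the motif is so frequent. They give the motif and 25 bases on each side in the reference member, which aligned to all 106 others of the group, in named members, in members with changed letters, and in a genome copy outside every region (GRCh37, on the strand that matches the reference member). Capitals mark the bases aligned with GGAATTTCC.
MICOS10 member (chr1:19876990-19877048, plus strand): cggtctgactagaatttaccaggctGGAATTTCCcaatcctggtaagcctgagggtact
TMCC3 member (chr12:95000699-95000757, plus strand): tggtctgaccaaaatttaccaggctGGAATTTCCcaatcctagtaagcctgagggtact
TEX13C member (chrX:124810541-124810599, minus strand): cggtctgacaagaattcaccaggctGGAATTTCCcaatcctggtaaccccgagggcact
ZNF648 member (chr1:182014776-182014836, plus strand): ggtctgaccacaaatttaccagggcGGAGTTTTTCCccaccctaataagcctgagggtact
ADGRB3 member (chr6:68795619-68795677, plus strand): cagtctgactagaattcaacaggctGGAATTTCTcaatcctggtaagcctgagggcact
RPL10L member (chr14:47128960-47129018, plus strand): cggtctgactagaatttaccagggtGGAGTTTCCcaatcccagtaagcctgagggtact
copy with no region (chr5:158807144-158807202, plus strand): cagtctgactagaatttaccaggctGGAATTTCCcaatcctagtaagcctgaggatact
The flanks were alike in all of these, and the copy with no region matched the reference member at 93.8% of aligned bases. The ZNF648 member had GGAGTTTTTCC in place of the motif. Members of the group matched the reference member at a median of 86.5% of aligned bases (78.0 to 93.9%).

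The genome held 1880 copies of this sequence by the same alignment. Of these, 214 overlapped a region of the table, 148 a region with a peak in 3 or more SCC1 libraries, 29 one in SCC6 and 21 one in SCC25, and 107 an SCC1-only region. Regions with the sequence made up 17.4% of SCC1-only regions, 0.630% of all regions with a peak in 3 or more SCC1 libraries and 0.186% of all regions. They made up 2 of 26234 SCC6-only and 0 of 9245 SCC25-only regions.

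The exact motif was in 1024 of the 1880 copies (54.5%) and in 84 of the 107 at SCC1-only regions (78.5%). Of copies with the exact letters 8.203% were at an SCC1-only region, against 2.69% of the others, which had other letters or did not align there. Likeness to the reference member went with this as well. Among 251 copies at 85% identity or more, 57 of 195 with the exact letters (29.2%) and 4 of the 56 others (7.14%) were at an SCC1-only region. Below 85% identity it was 27 of 829 (3.26%) and 19 of 800 (2.38%). Copies with changed letters and copies not aligned at the motif were not compared separately. Since the reference member was itself chosen among members, their likeness to it is raised by that choice. Most copies with an intact motif carried no peak.

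Of the 107 members, 50 were intergenic, 31 in introns, 26 in non-coding genes and 0 in promoters or coding exons. Their median distance to a start site was 49.0 kb, against 40.5 kb over all members. Their median signals were 65.9, 3.15 and 3.97 for SCC1, SCC6 and SCC25. The 507 other members had 54.3, 4.56 and 9.004, so signal per region in the group was higher in SCC1 and lower in SCC25. Regions of the group were also wider (median 327 against 218 bases), and signal per base was not compared. Within the group, the median over members was 59.7, 64.2 and 57.9 in the SCC1 cetuximab libraries and 74.2 and 71.5 in the SCC1 PBS libraries. These did not overlap on the deposited scale (mean log2 difference -0.27), but did with each library centred on its median (-0.05) and with quantile normalization (-0.15). Between 24.7% and 85.9% of a member's 32-base words occurred elsewhere, so reads from near-identical copies may be shared among them.

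**Figure D4:**
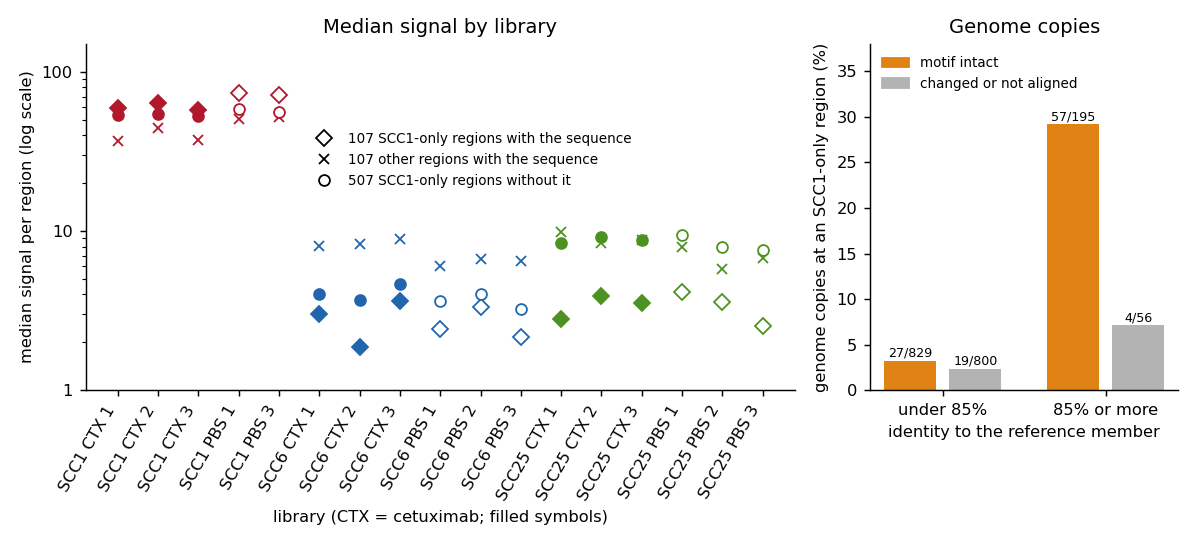
Left, median signal per library (log scale) of the 107 SCC1-only regions with the shared sequence (diamonds), of 107 other regions with it (crosses) and of the 507 SCC1-only regions without it (circles); filled diamonds and circles are cetuximab. Right, share of genome copies at an SCC1-only region by identity to the reference member, with counts above the bars. Bars split copies with intact NF-kB letters from those with letters changed or not aligned. The share is highest, 57 of 195, for like copies with the intact letters.

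Cetuximab against PBS in SCC1 is only partly separate from the choice of members, although peaks of both treatments counted. The rule could admit regions with peaks in all 3 cetuximab and in no PBS library (9 members), which favours higher calls. It could admit none with peaks in PBS alone. Another 228 members entered with peaks in 1 cetuximab and 2 PBS libraries, which can favour lower calls. A further 87 entered with peaks in 2 cetuximab libraries and 1 PBS library. Of the 614 members, 593 passed the filter on low regions. In these, 25 (4.22%) were called higher and 42 (7.08%) lower (limma, adjusted p under 0.05), against 4.57% and 6.56% of all 86321 tested regions. Both shares were near those of all tested regions. Of 22839 tested regions with a peak in 3 or more SCC1 libraries, 7.82% were called higher and 7.34% lower, with a median log2 change of -0.05. Beside these, members were called higher less often, so whether they stood out depends on the comparison.

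The median log2 change of the tested members was -0.17, against -0.09 for all tested regions, and 381 of 593 (64.2%) were negative, against 55.3%. With each library centred on its median, these medians became 0.02 and 0.10, and the calls 46 higher and 19 lower. The direction of the calls as a whole thus depends on the scaling, and the member median lay below that of all regions under both scalings. Libraries of the 2 treatments did not overlap at 86 members in the higher direction (15.9% of tested regions did so) and at 163 in the lower (24.1%). In the 584 tested members with a peak under both treatments, 19 were higher and 42 lower. Leaving out the 24 regions with low signal left 25 and 42. On the recovered whole reads, edgeR called 35 members higher and 40 lower, and DESeq2 21 and 11. Counts under these other settings were not set beside the share of all regions called. They thus do not show whether members moved apart from other regions.

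The counts rest on few PBS libraries. Without SCC1 PBS replicate 1, 11 members were called higher and 2 lower, and without SCC1 PBS replicate 3, 10 and 6, where the remaining PBS library is assumed to vary like the cetuximab libraries. Without SCC1 cetuximab replicate 3, 15 were called higher.

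Members called higher included sites absent from PBS peak lists. The strongest lay in an intron of ZBTB16, 78.1 kb from NNMT, an enzyme that methylates nicotinamide. Its signal was 184, 144 and 227 after cetuximab and 40.3 and 30.1 after PBS, with no overlap, and 0.992 to 6.50 in SCC6 and 11.9 to 25.3 in SCC25. Its log2 change was 2.35 (SE 0.26, adjusted p = 1.5e-14 by limma).

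The region 277 kb from IRS2, an insulin receptor substrate, had 96.5, 130 and 147 after cetuximab and 50.7 and 30.1 after PBS, a log2 change of 1.62 (SE 0.28, adjusted p = 2.22e-06 by limma). The region 14.7 kb from CYP1A2, a cytochrome P450 of xenobiotic metabolism, had 142, 89.5 and 144 against 40.3 and 51.4, a log2 change of 1.41 (SE 0.27, adjusted p = 3.64e-05 by limma). In each, all treated libraries lay above both PBS libraries. The central 200 bases of the NNMT and IRS2 regions (GRCh37, plus strand, motif matches in capitals) are shown as those with the smallest adjusted p among the rises.
NNMT (chr11:114050157-114050356): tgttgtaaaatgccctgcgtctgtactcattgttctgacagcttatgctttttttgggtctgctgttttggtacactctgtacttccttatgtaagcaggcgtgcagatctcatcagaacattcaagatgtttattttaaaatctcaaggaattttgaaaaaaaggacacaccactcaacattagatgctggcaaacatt
IRS2 (chr13:110161887-110162086): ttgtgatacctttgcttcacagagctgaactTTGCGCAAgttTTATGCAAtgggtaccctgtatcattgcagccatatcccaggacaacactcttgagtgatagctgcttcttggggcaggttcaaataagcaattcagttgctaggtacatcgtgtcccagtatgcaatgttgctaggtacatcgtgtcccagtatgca
The NNMT region held none of the 17 motifs in this window and the IRS2 region held 2 C/EBP motifs.

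The regions near MDFIC (386 kb) and SLC9A9 (an intron, 239 kb) rose by a log2 of 2.52 and 1.80 (limma adjusted p of 1.66e-05 and 0.00022). MDFIC had 50.8, 56.4 and 40.7 after cetuximab and 5.20 and 11.2 after PBS, and SLC9A9 had 54.6, 74.0 and 54.8 against 15.6 and 17.9. Both were thus weak sites in PBS, with no overlap between treatments. The regions near NNMT, IRS2, MDFIC and SLC9A9 had a peak in all 3 cetuximab and in no PBS library, so the rule itself favoured their rise, whereas those near CYP1A2 and ZNF648 had peaks under both treatments. ZNF648, with the shared sequence, had 99.0, 107 and 105 against 45.5 and 36.8.

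Of the 6 named members that fell, 5 held the shared sequence. Among all 42 members called lower, however, 13 held it and 29 did not. The region 84.5 kb from IZUMO1R had 54.6, 77.9 and 50.1 after cetuximab and 172 and 140 after PBS, a log2 change of -1.36 (SE 0.26, adjusted p = 4.71e-05 by limma). The region in an intron of LMO7, a LIM-domain protein of cell junctions, had 112, 121 and 90.8 against 237 and 210, a log2 change of -1.05 (SE 0.22, adjusted p = 0.000186 by limma). Treated and PBS libraries did not overlap in either.

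Also with the shared sequence were regions with SPIDR (672 kb away, in a non-coding gene), TMCC3 (8.95 kb, in an intron) and TEX13C (357 kb, intergenic) as nearest gene. They had 117 to 128, 20.3 to 42.8 and 25.4 to 46.7 after cetuximab against 199 to 281, 83.7 to 91.1 and 70.3 to 121 after PBS. Their log2 changes were -0.93, -1.46 and -1.38 (limma adjusted p of 0.000673, 0.000927 and 0.00125). The sixth, in an intron of RGS10, a regulator of G protein signalling, had 45.7, 60.3 and 25.04 against 96.3 and 108, a log2 change of -1.29 (SE 0.31, adjusted p = 0.00135 by limma), and lacked that sequence. TMCC3, TEX13C and RGS10 entered with a peak in 1 cetuximab and 2 PBS libraries, so the rule may have favoured their fall. All 6 named falls lost their call without SCC1 PBS replicate 1, with log2 changes of -1.21, -0.97, -0.68, -1.40, -0.99 and -1.38 for IZUMO1R, LMO7, SPIDR, TMCC3, TEX13C and RGS10 and limma adjusted p of 0.0559, 0.0748, 0.264, 0.0981, 0.312 and 0.057. With all libraries in 1 fit, IZUMO1R, LMO7, SPIDR and RGS10 also missed the threshold (limma adjusted p of 0.0839, 0.288, 0.366 and 0.0852), as did RGS10 without SCC1 PBS replicate 3 (limma adjusted p = 0.0963).

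As a group, members with the shared sequence leaned lower after cetuximab. Of 105 tested, 13 (12.4%) were called lower and 4 (3.81%) higher, against 6.56% and 4.57% of all tested regions. Their median log2 change was -0.34, against -0.09, and 78 of 105 (74.3%) were negative, against 55.3%. With each library centred on its median, 7 were called lower. Of the 488 tested members without it, 29 (5.94%) were lower and 21 (4.30%) higher, with a median of -0.13. The 104 tested regions with the sequence that are not members, and so were not chosen by the rule, had 15 (14.4%) lower and 9 (8.65%) higher, with a median of -0.37. The group was chosen after these values were seen and carries no test of its own. Its count of lower calls fell to 1 when SCC1 PBS replicate 1 was left out, to 6 without SCC1 PBS replicate 3 and to 7 without SCC1 cetuximab replicate 1, and rose to 22 when SCC1 cetuximab replicate 2 was left out, while its median log2 change stayed between -0.37 and -0.15 in all 17 alternatives.

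**Figure D5:**
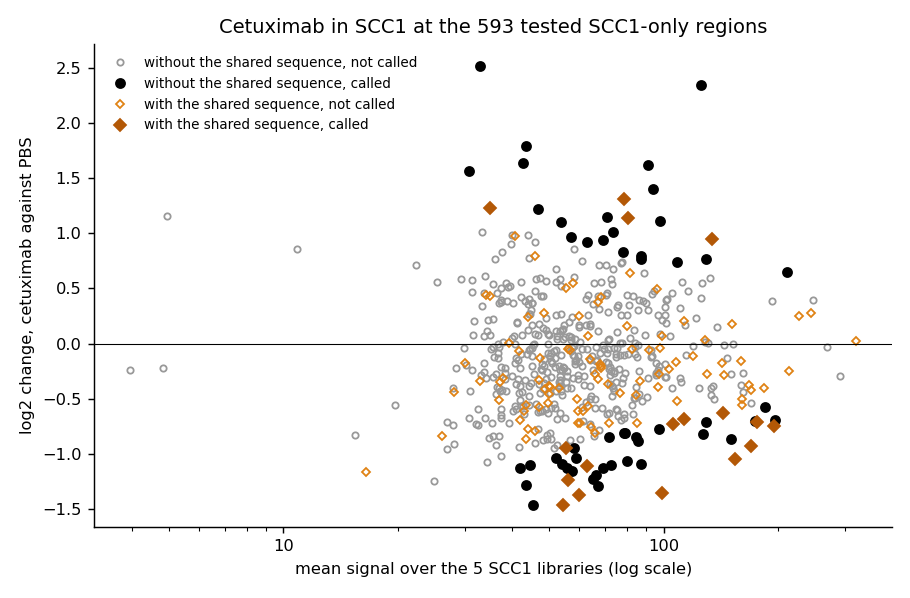
Log2 change of cetuximab against PBS in SCC1 (y axis) over the mean SCC1 signal (x axis, log scale) for the 593 tested SCC1-only regions. Diamonds hold the shared sequence, and filled symbols are called at a limma adjusted p under 0.05; of the called diamonds 13 lie below 0 and 4 above.

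The response at these regions in the other lines was read in the same way. In SCC6, 147 of 614 members passed the filter, and 11 were called higher and 12 lower, against 16.9% and 10.6% of all tested regions. In SCC25, 475 passed, and 0 were called in either direction, against 0.0405% of tested regions higher and 0.275% lower (0.315% in all), with 29 at an unadjusted p under 0.05 and 0 by edgeR or DESeq2 on recovered reads. Members that passed are those with more signal in that line and do not stand for all 614. The difference between lines in the response to cetuximab was not tested at these regions.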

How the data were processed

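ATAC-seq libraries of SCC1, SCC6 and SCC25 were analysed from the files the authors deposited. Per the labels and the methods of the study, the authors trimmed reads with Trim Galore 0.5.0, aligned them with Bowtie2 2.3.2 to hg19 (GRCh37), filtered them with Picard 2.18 and SAMtools 1.9, called broad peaks per library with MACS2 and merged them with DiffBind. The deposited table gives a signal per region and library, which is whole reads (0 set to 1) times 1 step per library (all values within a tolerance of 0.001). The deposited peak lists hold, for each peak, its fold enrichment as a ratio and the −log10 of its p- and q-value, as the authors' caller wrote them.

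Regions were chosen on the peak lists, and starts were written 1-based. The members and gene lists, motifs and tests were chosen with earlier results of these data known. Cetuximab and PBS libraries of a line were compared with limma 3.58.1 in R 4.3.3 (trend, robust, two-sided) on log2(signal + 1), which understates changes of low regions, after dropping the 25% of regions with the lowest mean, and p-values were adjusted by Benjamini-Hochberg (threshold 0.05). Recovered whole reads were also tested with edgeR 4.0.16 and DESeq2 1.42.0. The fit was tested on simulated data.

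Start sites came from GENCODE release 44 mapped to GRCh37 (78714 sites of 19807 protein-coding genes). Shared sequences were found with blastn 2.17.0. Named regions were the 10 members with the highest SCC1 signal per 100 bases, the 10 such promoters (1 per gene), the 6 higher and 6 lower members with the smallest adjusted p and no overlap between treatments, the genes nearest to most members, the 5 first joined pairs, and 2 members per gene list. Wilson intervals cover counting error only. Python 3.11.15, numpy 2.4.6, pandas 2.3.3, scipy 1.17.1, networkx 3.6.1 and matplotlib 3.10.9 did the rest. Some items are not reported here.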

Additional observations from a re-analysis of the deposited data

Results flagged for a closer look

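In the 107 regions that hold the shared sequence but are not SCC1-only, library medians moved in opposite directions between lines after cetuximab. Their library medians in SCC1 were 36.8, 44.8 and 37.6 after cetuximab and 50.7 and 52.5 after PBS, a mean log2 difference of -0.38. In SCC6 they were 8.08, 8.36 and 8.93 after cetuximab and 6.04, 6.69 and 6.53 after PBS, a mean log2 difference of 0.40. In SCC25 they were 9.84, 8.47 and 8.86 after cetuximab and 7.91, 5.77 and 6.79 after PBS, a mean log2 difference of 0.42. All treated libraries lay below the PBS libraries in SCC1 and above them in SCC6 and SCC25, and this is what drew attention to them. Single regions bore this out only in part. In SCC6, 49 passed the filter, and 12 (24.5%) were called higher and 2 (4.08%) lower, against 16.9% and 10.6% of all tested regions. In SCC25, 78 passed and 0 were called in either direction. The SCC6 and SCC25 levels were low. The floor of 1 read stood for 1.41, 0.651 and 1.77 in the SCC25 cetuximab libraries and for 0.377, 0.721 and 0.848 in the SCC25 PBS libraries. The part of this floor in the differences was not tested. The difference between lines was not tested. With each library centred on its median the differences were -0.16, 0.25 and 0.49, and with quantile normalization -0.20, 0.26 and 0.37, so the signs held, but the SCC1 libraries overlapped under centring and the SCC25 libraries under quantile normalization. The 107 members with the sequence, at still lower levels in SCC6 and SCC25, showed no such separation there.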

How the results depend on the processing

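The number of SCC1-only regions depended on the rule: 349 with a peak over at least 50% of the region, 246 with a −log10 q of at least 3, 127 with a peak in all 5 SCC1 libraries and 1488 with a peak in at least 2. Members called higher in SCC1 (25) were 46 with each library centred on its median, 39 with quantile normalization, 10 with all libraries in 1 fit and 7 of those with a peak in all 5 libraries, and 10 to 33 with 1 library left out. Members called lower (42) were 19 with centring, 27 without the filter, 11 with DESeq2, 3 with all libraries in 1 fit and 8 of those with a peak in all 5 libraries, and 2 to 57 with 1 library left out. Their median change (-0.17) turned to 0.0151 with centring, where that of all regions moved from -0.09 to 0.10, and lay between -0.19 and -0.14 with 1 library left out. Members called in SCC6 (23) were 39 with quantile normalization, 67 without the filter, 1 with the 50% lowest regions left out, 82 with all libraries in 1 fit and 14 to 23 with 1 library left out. In SCC25, 0 were called, and 1 with all libraries in 1 fit. Lower calls with the shared sequence (13) were 7 with centring, 5 with DESeq2, 2 with all libraries in 1 fit and 1 to 22 with 1 library left out. The share within 1 kb of a start site (3.91%) was 8.14% within 3 kb and 12.1% with start sites of all genes. The share with an AP-1 motif (16.1%) was 19.5% without the shared sequence, and that with an NF-kB motif (13.5%) 29.1% in members with a peak in all 5 libraries and 0.394% without the shared sequence. Regions chosen on the cetuximab libraries and called in PBS (182) stayed between 152 and 188. Counts of called members were not set beside the share of all regions called under each setting. They thus do not show whether members moved apart from other regions. The cause of these shifts was not tested, apart from alternatives that test fewer regions or libraries. Alternatives without the low-signal regions or without the shared sequence, and all those for the shared sequence and the NF-kB motif, were chosen after seeing the data. Of 204 values for the 12 members named for their response, 193 kept direction and call, 11 lost the call and 0 changed sign.

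Replicates with the same number did not deviate together (correlations of -0.04 to 0.03), so the numbers do not pair the libraries. With a replicate block, 34 members were called higher and 57 lower in SCC1, 23 called in SCC6 and 0 in SCC25, and 21 with the shared sequence were lower. Depth limits the low end: 28.0 reads was the median per member in the shallowest SCC1 library, and 9.61% to 43.5% of members were at the floor of 1 read in an SCC6 library.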
